A study of Homo sapiens with 7 samples.

Results

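The genes described are the translation factors and the host genes of small nucleolar RNAs (snoRNAs) in NGP cells, an established line from a human neuroblastoma that carries extra copies of MYCN. They were chosen by symbol: the eIF1 to eIF6 initiation factors, the eEF1 and eEF2 elongation factors, the numbered SNHG genes, and 9 added genes (GAS5, PABPC1, PABPC4, TPT1, NPM1, NCL, FBL, NOP56 and GNB2L1). The rule found 86 of the 28517 entries, and another 4 with antisense or pseudogene names were left out. Of the 86, 17 were listed as genes of known TOP mRNAs, 13 coding for proteins and 4 hosting snoRNAs, and 69 as the rest.

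RNA sequencing gave 7 libraries. ARID1A-/- line 1 and ARID1A-/- line 2, labelled as mutant in both copies of a gene for a subunit of the BAF chromatin remodelling complex, had 2 libraries each, an ARID1A+/- line had 1, and control NGP cells had 2. Each group of 2 had a library from the KAPA mRNA HyperPrep kit and a library from the SMARTer Universal Low Input RNA Kit. KAPA alone was used for the ARID1A+/- line. Cells of all groups grew with 0.5 µg/ml puromycin and no other stated treatment. ARID1A-/- comes as 2 lines, and the ARID1A+/- genotype and the control as a single line each. The labels give neither the position of the mutations nor how the control cells were made, and separate cultures are not mentioned. The p-values thus reflect only how much these libraries vary. The kits are named in the labels as a step that removes ribosomal RNA, while the molecule is given as polyadenylated RNA.

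Libraries held between 24445301 and 43644361 counts. Levels are in RPKM, read counts scaled by entry length and by the total of the library, and every pair of values gives KAPA before SMARTer. ARID1A RNA stood at 13.8 to 17.2 RPKM in the ARID1A-/- lines, 19.9 RPKM in the ARID1A+/- line and at most 22.3 RPKM in the control, which does not check the genotype. Of the neuroblastoma markers, HAND2, PHOX2A and GATA3 were at 70.8 RPKM or more in every library. Of the enzymes of noradrenaline synthesis, TH was at 0.456 RPKM or less in every library. DBH was at 5.17 and 1.38 RPKM in line 1 and at 0.407 RPKM or less in every other library. Its line 1 minus line 2 difference was 4.99 ± 0.97 (log2, SE, adjusted p = 0.0210, edgeR). Of the markers of other cell types, PECAM1 and HBB were listed at 0 in all 7 libraries, and PTPRC, CD74, CDH5, KRT8 and HBA1 were at 0.722 RPKM or less. EPCAM was at 0.159 to 1.63 RPKM. Of the fibroblast markers, COL1A2 was at 0.0336 RPKM or less and PDGFRA at 6.83 to 32.7 RPKM. COL1A1 stood at 171 and 156 RPKM in line 1, 19.9 and 30.3 RPKM in line 2, 17.1 RPKM in the ARID1A+/- line, and 62.6 and 60.2 RPKM in the control, with line 1 minus line 2 at 2.76 ± 0.19 (log2, SE, adjusted p = 0.000788, edgeR). Its part in the differences between the lines was not tested.

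TOP mRNAs begin with a C followed by a run of pyrimidines, the 5′ terminal oligopyrimidine tract. They code for ribosomal proteins and for many translation factors, and the mTOR pathway and the RNA-binding protein LARP1 control together how well they are translated and how long they last. The snoRNA host genes carry snoRNAs in their introns, and several of them, GAS5 among them, share the TOP start, with a spliced RNA that codes for no long protein and is removed by nonsense-mediated decay. The data give RNA levels, not translation.

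The start of the RNA is shown because it defines a TOP mRNA. The TOP list itself came from prior knowledge and not from these sequences. RefSeq start sequences on GRCh38.p14 were found for 70 of the 86 members, 2 of them under a newer name (RACK1 for GNB2L1 and EEF1E1-BLOC1S5 for EEF1E1-MUTED). Each line gives 10 bases before the annotated start and 20 bases from it, 5′ to 3′, and capitals mark a pyrimidine run that begins with C at the start and has at least 4 more bases that are C or T. Known TOP members with such a run are first:
EEF1A1, chr6:73521013-73521042, minus strand: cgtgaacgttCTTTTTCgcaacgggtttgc
EEF1B2, chr2:206159885-206159914, plus strand: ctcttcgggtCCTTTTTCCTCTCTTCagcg
EEF2, chr19:3985444-3985473, minus strand: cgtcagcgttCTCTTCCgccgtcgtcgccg
EIF3F, chr11:7987327-7987356, plus strand: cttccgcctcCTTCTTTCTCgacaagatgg
EIF4B, chr12:53006446-53006475, plus strand: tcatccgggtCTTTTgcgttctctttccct
GNB2L1, chr5:181243887-181243916, minus strand: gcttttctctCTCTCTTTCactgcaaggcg
NPM1, chr5:171387839-171387868, plus strand: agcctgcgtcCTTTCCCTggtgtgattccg
SNHG5, chr6:85678714-85678743, minus strand: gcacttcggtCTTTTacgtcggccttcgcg
TPT1, chr13:45341164-45341193, minus strand: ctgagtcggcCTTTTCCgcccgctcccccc

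Of the 4 known TOP members with no such run at an annotated start, 3 are shown, which differ from the letters above:
EEF1G, chr11:62573872-62573901, minus strand: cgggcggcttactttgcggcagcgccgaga
SNHG1, chr11:62855866-62855895, minus strand: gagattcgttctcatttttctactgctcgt
GAS5, chr1:173869026-173869055, minus strand: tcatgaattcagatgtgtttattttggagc

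All 10 members outside the list that carry the run are shown for comparison, with their changes given further on:
EIF2A, chr3:150546777-150546806, plus strand: cgagcggtttCTCTTTCCgggacaacatgg
EIF2D, chr1:206612446-206612475, minus strand: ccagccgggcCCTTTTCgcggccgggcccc
EIF2S3, chrX:24054946-24054975, plus strand: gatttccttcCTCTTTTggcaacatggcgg
EIF3D, chr22:36529147-36529176, minus strand: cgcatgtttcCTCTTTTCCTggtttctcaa
EIF3K, chr19:38619178-38619207, plus strand: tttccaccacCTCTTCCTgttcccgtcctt
EIF3M, chr11:32583821-32583850, plus strand: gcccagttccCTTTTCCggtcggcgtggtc
EIF4A2, chr3:186783567-186783596, plus strand: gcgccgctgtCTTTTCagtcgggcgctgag
FBL, chr19:39846360-39846389, minus strand: cgcctgcgctCTTTTCCacgtgcgaaagcc
SNHG12, chr1:28581854-28581883, minus strand: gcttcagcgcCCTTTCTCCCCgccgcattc
SNHG4, chr5:139274091-139274120, plus strand: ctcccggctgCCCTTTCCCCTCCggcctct

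The starts of 3 other members with large changes lack the run (the first of the 3 annotated starts of EIF4E3 is shown):
EIF4E3, chr3:71754754-71754783, minus strand: cccgccgtccagttggcggccgcctggccg
EIF2AK3, chr2:88627445-88627474, minus strand: tgtccgagataggctgtcactcaggtggca
SNHG8, chr4:118278752-118278781, plus strand: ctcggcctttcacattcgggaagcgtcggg

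The run stood at an annotated start of 9 of the 13 known TOP members that had a sequence and of 10 of the 57 other members, against 5.14% of the 27305 genes in the table (4.07% of its 35116 starts). It was read on the transcript's strand only, and no other motif was searched. EEF1B2 and NPM1 have 2 annotated starts each and carry it at 1. A match is a description of these letters and not of where transcription starts in NGP cells.

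Over both ARID1A-/- lines, all 17 known TOP members were lower than in the control, and 9 of them passed the test. Over the 17, the median log2 fold change was -0.53, against -0.12 over the 68 other members tested and 0.02 over all 14711 genes tested. Of the 85 members tested, 24 fell and 1 rose at a Benjamini-Hochberg adjusted p under 0.05 by edgeR's quasi-likelihood test, where 14.2% of all genes tested passed (9.57% lower and 4.64% higher). EIF4E1B, a germ cell form of the cap-binding protein, was listed at 0 in 6 libraries and at 0.0373 RPKM in the SMARTer library of line 2, and did not pass the filter on low values. The number of calls rested on single libraries: it was 3 without the SMARTer control library, 5 without the KAPA control library, 9 and 7 without the SMARTer and KAPA libraries of line 2, and 39 without the KAPA library of line 1. Of the 17 TOP members, 1 to 15 were called in the 6 fits that left out a library: 15 without the KAPA library of line 1, 11 without its SMARTer library, 1 without the SMARTer control library, and 2 without the KAPA control library or either library of line 2. By method the TOP count was 16 with DESeq2, 13 without the filter, 7 without TMM, 2 with quantile normalization, 3 and 1 by limma with pseudocounts of 1 and 0.1, and 1 without the kit term. The median of the 17 lay between -0.66 and -0.42 in the fits without a library, with all 17 below 0.

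**Figure D1:**
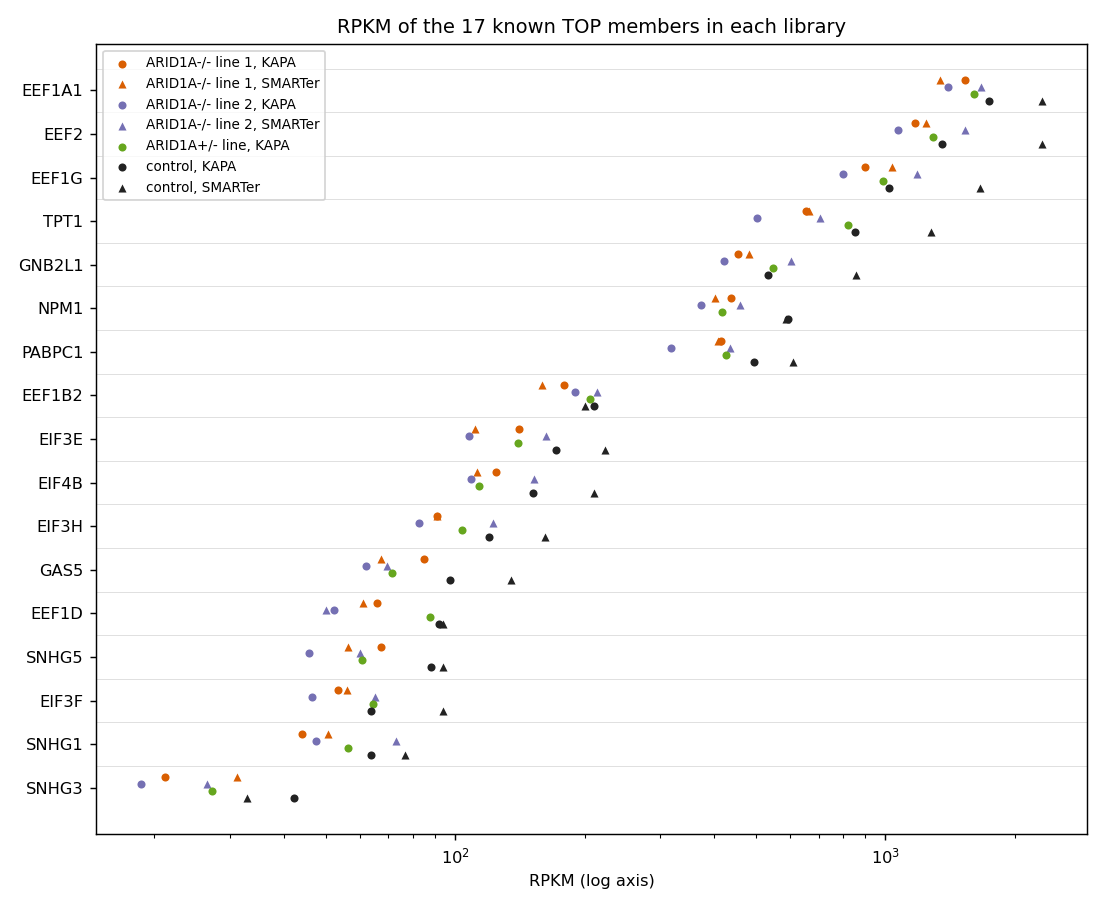
RPKM of the 17 known TOP members on a log axis, by library, with circles for KAPA and triangles for SMARTer and no averaging. In 9 of the 17 genes the 4 libraries of the ARID1A-/- lines lie below both control libraries, and the SMARTer control library is often the highest of the 7.

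TPT1, which codes for the translationally controlled tumour protein, had 654 and 665 RPKM in line 1, 505 and 707 RPKM in line 2, 818 RPKM in the ARID1A+/- line, and 851 and 1275 RPKM in the control. The 4 libraries of the ARID1A-/- lines lay below the other 3. TPT1 had a log2 fold change of -0.75 ± 0.14 (SE, adjusted p = 0.0161, edgeR). This was the largest fall among the 13 TOP members that code for proteins. EEF1D, the delta subunit of the exchange factor that reloads eEF1A with GTP, had 65.9 and 61.1 RPKM in line 1, 52.3 and 50.1 RPKM in line 2, 87.4 RPKM in the ARID1A+/- line, and 91.9 and 93.9 RPKM in the control. The ARID1A-/- lines and the control did not overlap, and line 2 was the lowest. EEF1D fell by 0.72 ± 0.10 on the log2 scale (SE, adjusted p = 0.00512, edgeR).

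NPM1, a nucleolar chaperone of ribosome assembly, had 439 and 402 RPKM in line 1, 373 and 459.6 RPKM in line 2, 417 RPKM in the ARID1A+/- line, and 595 and 589 RPKM in the control. All 5 libraries from mutant lines were below the control. The fall in the ARID1A-/- lines was 0.52 ± 0.12 on the log2 scale (SE, adjusted p = 0.0324, edgeR). PABPC1, the cytoplasmic poly(A)-binding protein, had 415 and 408 RPKM in line 1, 318 and 435 RPKM in line 2, 427 RPKM in the ARID1A+/- line, and 496 and 609.7 RPKM in the control, and its log2 fold change was -0.50 ± 0.12 (SE, adjusted p = 0.0427, edgeR). Here too the ranges of the ARID1A-/- lines and the control were apart.

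The most abundant members missed the threshold by edgeR. EEF1A1, which brings aminoacyl-tRNA to the ribosome, had 1535 and 1342 RPKM in line 1, 1397 and 1673 RPKM in line 2, 1613 RPKM in the ARID1A+/- line, and 1739.6 and 2321 RPKM in the control. Its log2 fold change was -0.46 ± 0.16 (SE, adjusted p = 0.117, edgeR), and the SMARTer control library stood far above the rest. EEF2, the factor that moves the ribosome along the mRNA, had 1170.4 and 1247 RPKM in line 1, 1071 and 1534 RPKM in line 2, 1289.9 RPKM in the ARID1A+/- line, and 1358 and 2312 RPKM in the control. The SMARTer library of line 2 was above the KAPA control library, so the groups overlapped. EEF2 had a log2 fold change of -0.53 ± 0.16 (SE, adjusted p = 0.0803, edgeR). EEF1G, EIF3E, EIF4B, GNB2L1 (the ribosomal scaffold RACK1) and SNHG3 lay between -0.67 and -0.44 with adjusted p between 0.0535 and 0.0787. EEF1B2, which catalyses the same exchange on eEF1A as EEF1D, was the nearest to 0 at -0.17 ± 0.10 (SE, adjusted p = 0.325, edgeR).

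Within each kit, all 17 TOP members were below the same-kit control in both libraries of line 1 and in the KAPA library of line 2, and 16 of 17 were in the SMARTer library of line 2, where EEF1B2 was at 0.03. The median was -0.30 in KAPA and -0.72 in SMARTer for line 1, and -0.54 in KAPA and -0.56 in SMARTer for line 2. The same medians over the other members were -0.18 and -0.10 for line 1 and -0.20 and -0.12 for line 2, and over all genes between -0.01 and 0.04. These differences share the control libraries, 1 per kit. As a share of all counts of the library, with no TMM factor, the 13 coding TOP members took 1.80% and 1.74% in line 1, 1.59% and 2.11% in line 2, 1.94% in the ARID1A+/- line, and 2.11% and 3.02% in the control. The SMARTer library of line 2 was thus at the level of the KAPA control library. MYCN RNA stood at 1063 and 1435 RPKM in line 1, 606 and 2343 RPKM in line 2, 783 RPKM in the ARID1A+/- line, and 1226 and 3663 RPKM in the control, and its part in the TOP levels was not tested.

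By line, against the same control libraries, the TOP medians were -0.54 in line 1 and -0.53 in line 2. In line 1, 4 TOP members fell (EEF1D, EIF3H, SNHG1 and TPT1), and in line 2, 6 did (EEF1D, GAS5, NPM1, PABPC1, SNHG5 and TPT1). Of all 85 members, 1 rose and 10 fell in line 1, where 13% of genes passed (4.75% higher and 8.27% lower). In line 2, 4 rose and 16 fell, where 14% passed (5.47% higher and 8.52% lower). The 4 TOP calls of line 1 held in 1 of the 6 fits that left out a library, the one without the KAPA library of line 1. None of the 17 passed the test of line 1 minus line 2 by edgeR, with 1 at an unadjusted p under 0.05 and 0 by DESeq2, and the median of that difference was 0.04. Without a single library the number of members called ranged from 1 to 34 in line 1 and from 3 to 40 in line 2, both highest without the KAPA library of line 1 and lowest without a control library (KAPA for line 1, SMARTer for line 2). In line 1 it was 3 without the SMARTer control library, and 4 without either library of line 2 or the SMARTer library of line 1. In line 2 it was 6 without the KAPA control library, 37 without the SMARTer library of line 1, and 5 and 4 without the SMARTer and KAPA libraries of line 2.

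The cytosolic ribosomal protein genes, the largest class of TOP mRNAs, are no members but show the level of the class. Of 82 such symbols tested, 56 fell and 0 rose, with a median of -0.52, where 9.57% of all genes tested fell and 4.64% rose. LARP1 and the mTOR pathway act on TOP mRNAs. Of 25 genes of the mTOR and LARP1 list, TIA1 rose (0.45 ± 0.11, adjusted p = 0.0423), RPS6, itself a TOP mRNA, fell (-0.55 ± 0.14, adjusted p = 0.0454), and the next was RPS6KB1 (0.41 ± 0.12, adjusted p = 0.0614; SE, edgeR). The median over the list was 0.04, and 8% of the list passed, below the 14.2% of all genes tested.

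**Figure D2:**
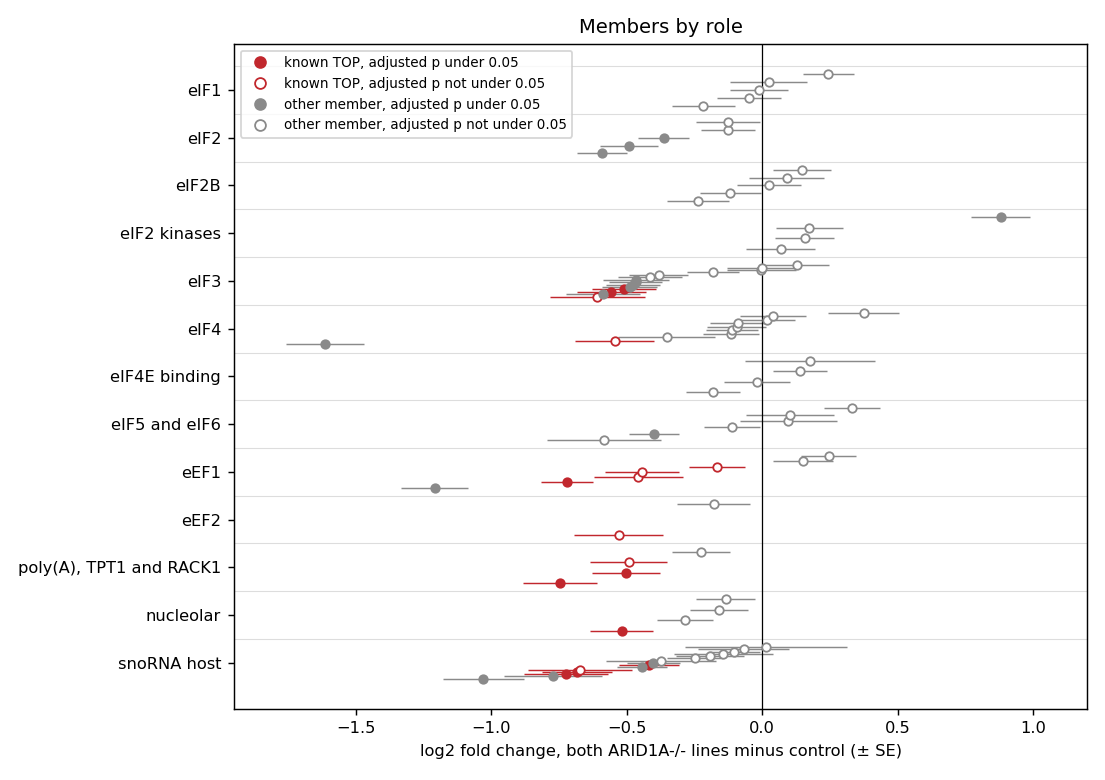
Log2 fold change of both ARID1A-/- lines minus control for the 85 members tested, in rows by role, with bars of 1 SE from edgeR. Known TOP members are red, and filled points passed an adjusted p under 0.05. The eIF2, eEF2, nucleolar, and poly(A), TPT1 and RACK1 rows lie wholly left of 0. The eIF3, eIF4, eEF1 and snoRNA host rows lie mostly left of 0 and the eIF2 kinase row right of it.

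The initiation scaffold eIF3 gave 7 falls in 14 entries, where 9.57% of all genes fell. Of the 14, 13 were below 0, with a median of -0.47. Only 3 of the 14 are on the TOP list (EIF3E, EIF3F and EIF3H). EIF3H had 90.6 and 91.0 RPKM in line 1, 82.3 and 123 RPKM in line 2, 104 RPKM in the ARID1A+/- line, and 119.7 and 162 RPKM in the control. Its log2 fold change was -0.56 ± 0.13 (SE, adjusted p = 0.0326, edgeR), with the SMARTer library of line 2 above the KAPA control library. EIF3L, outside the list, had 95.6 and 100.3 RPKM in line 1, 76.2 and 109.6 RPKM in line 2, 107 RPKM in the ARID1A+/- line, and 109.7 and 179.5 RPKM in the control, and its log2 fold change was -0.59 ± 0.14 (SE, adjusted p = 0.0361, edgeR). The KAPA control library of EIF3L and the SMARTer library of line 2 were nearly level. EIF3K, EIF3I, EIF3G and EIF3D fell by 0.49, 0.48, 0.47 and 0.47 on the log2 scale, and EIF3F by 0.51. EIF3C and EIF3CL are near-identical copies with nearly equal counts (28779 and 28814 in the KAPA library of line 1), so their reads cannot be told apart, and neither passed.

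Of the factor eIF2, which brings the initiator tRNA, the RNAs of the beta and gamma subunits fell. EIF2S2 (beta) had 55.6 and 47.8 RPKM in line 1, 59.9 and 57.3 RPKM in line 2, 60.2 RPKM in the ARID1A+/- line, and 86.1 and 78.0 RPKM in the control. All 5 libraries from mutant lines were below both control libraries. EIF2S2 fell by 0.59 ± 0.09 on the log2 scale (SE, adjusted p = 0.00899, edgeR), EIF2S3 (gamma) by 0.36 ± 0.09 (adjusted p = 0.0473), and EIF2A, which can bring the initiator tRNA on its own, by 0.49 ± 0.11 (adjusted p = 0.0296). The alpha subunit EIF2S1, the one that stress kinases phosphorylate, was at -0.13 ± 0.10 (adjusted p = 0.449).

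Of the 4 kinases that phosphorylate eIF2 alpha, EIF2AK3 (PERK, the kinase of the endoplasmic reticulum) rose, the only rise among the 85 members over both lines. It had 11.1 and 7.73 RPKM in line 1, 16.3 and 12.05 RPKM in line 2, 6.56 RPKM in the ARID1A+/- line, and 7.06 and 5.3 RPKM in the control. The lowest ARID1A-/- library was above the higher control library, and within each kit line 2 was above line 1. The log2 fold change was 0.88 ± 0.11 (SE, adjusted p = 0.00364, edgeR). EIF2AK1 (HRI, the haem-regulated kinase) had 46.5 and 50.6 RPKM in line 1, 76.1 and 88.1 RPKM in line 2, 59.6 RPKM in the ARID1A+/- line, and 58.2 and 53.7 RPKM in the control. Line 2 stood above the control and line 1 below it. It rose in line 2 by 0.51 ± 0.13 (adjusted p = 0.0421), was at -0.20 ± 0.13 in line 1 (adjusted p = 0.339), and the lines differed by -0.71 ± 0.13 (adjusted p = 0.0155, SE, edgeR). EIF2AK2 (PKR) and EIF2AK4 (GCN2) had log2 fold changes of 0.07 ± 0.13 and 0.17 ± 0.12 over both lines and did not pass.

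EIF2B1, the alpha subunit of the exchange factor that reloads eIF2, differed between the lines. It had 44.2 and 44.4 RPKM in line 1, 96.3 and 85.6 RPKM in line 2, 43.3 RPKM in the ARID1A+/- line, and 61.9 and 52.0 RPKM in the control. Line 1 and the ARID1A+/- line lay below the control and line 2 above it. It rose by 0.64 ± 0.12 in line 2 (adjusted p = 0.0204) and was at -0.35 ± 0.12 in line 1 (adjusted p = 0.119), and line 1 minus line 2 was -0.99 ± 0.13 (adjusted p = 0.00542, SE, edgeR). The other 4 eIF2B subunits lay between -0.24 and 0.09 over both lines. None of the 5 passed that test by edgeR, with 0 at an unadjusted p under 0.05 and 0 by DESeq2.

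**Figure D3:**
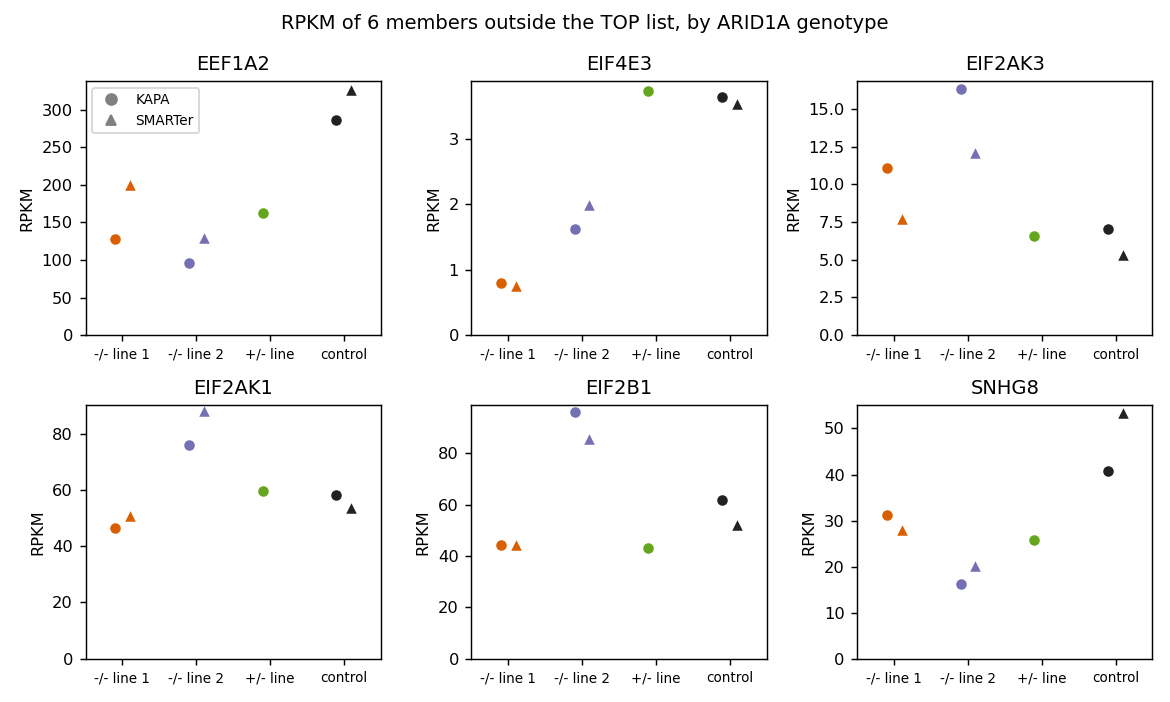
RPKM of 6 members outside the TOP list in each library, from a linear axis that starts at 0, with circles for KAPA and triangles for SMARTer. EEF1A2, EIF4E3 and SNHG8 are lower and EIF2AK3 higher in all 4 ARID1A-/- libraries than in both control libraries, while EIF2AK1 and EIF2B1 are high in line 2 alone.

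The largest falls of all members over both lines were in EIF4E3 and EEF1A2. EIF4E3, an unusual cap-binding protein of the eIF4E family, had 0.802 and 0.758 RPKM in line 1, 1.62 and 1.99 RPKM in line 2, 3.73 RPKM in the ARID1A+/- line, and 3.64 and 3.53 RPKM in the control. Line 1 was the lowest, line 2 between, and the ARID1A+/- library level with the control. EIF4E3 had a log2 fold change of -1.61 ± 0.14 (SE, adjusted p = 0.00106, edgeR). EEF1A2, the eEF1A form of neurons and muscle, had 128 and 200.3 RPKM in line 1, 96.3 and 129.9 RPKM in line 2, 162 RPKM in the ARID1A+/- line, and 286 and 327 RPKM in the control. All mutant libraries were below both control libraries. EEF1A2 fell by 1.21 ± 0.12 on the log2 scale (SE, adjusted p = 0.00178, edgeR), and was at -0.93 ± 0.15 in line 1 and -1.49 ± 0.15 in line 2. These were the only 2 members called in all 6 fits that left out a library. EEF1D and SNHG8 lost the call without the SMARTer control library, and EIF2AK3, EIF2S2 and SNHG5 without either control library. EIF2A and EIF3K lost it without either control library or the KAPA library of line 2, and GAS5 without the SMARTer control library or either library of line 2. EIF2S3 and SNHG1 kept it only without the KAPA library of line 1, and the other called members only without 1 library of line 1.

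Of the members grouped as eIF4 by symbol, which are not 1 complex, EIF4E3 alone passed among the 10 tested. EIF4A1 is not among the members. EIF4E, the main cap-binding protein, was at 0.04 ± 0.12, the scaffold EIF4G1 at 0.02 ± 0.10 and the helicase EIF4A2 at -0.35 ± 0.18. The 4 genes whose proteins bind eIF4E (EIF4EBP1, EIF4EBP2, EIF4EBP3 and EIF4ENIF1) lay between -0.18 and 0.17. None of these 4 passed by edgeR, with 0 at an unadjusted p under 0.05 and 0 by DESeq2. EIF6, which keeps the large ribosomal subunit from joining too early, fell by 0.40 ± 0.09 (adjusted p = 0.0353). The nucleolar proteins FBL, NOP56 and NCL lay between -0.29 and -0.14 and did not pass.

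Of the 15 snoRNA host genes tested, 7 fell, 0 rose and 14 were below 0, with a median of -0.40. The falls were in 3 of the 4 TOP hosts and 4 of the 11 other hosts. Of the 14711 genes tested, 9.57% fell, 4.64% rose and 7054 were below 0. GAS5, whose introns hold box C/D snoRNAs, had 84.9 and 67.2 RPKM in line 1, 62.1 and 69.4 RPKM in line 2, 71.3 RPKM in the ARID1A+/- line, and 97.3 and 135 RPKM in the control. All 5 mutant libraries lay below both control libraries. Its log2 fold change was -0.72 ± 0.16 (SE, adjusted p = 0.0281, edgeR). SNHG5 had 67.2 and 56.4 RPKM in line 1, 45.7 and 60.2 RPKM in line 2, 60.9 RPKM in the ARID1A+/- line, and 87.8 and 94.0 RPKM in the control. It too had no overlap, with a log2 fold change of -0.69 ± 0.13 (SE, adjusted p = 0.0179, edgeR). SNHG1 fell by 0.42 ± 0.11 (adjusted p = 0.05), at the edge of the threshold, and SNHG3 was at -0.67 ± 0.19 (adjusted p = 0.0641).

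Among the 11 hosts outside the TOP list, SNHG8 moved most. It had 31.2 and 28.0 RPKM in line 1, 16.2 and 20.1 RPKM in line 2, 25.8 RPKM in the ARID1A+/- line, and 40.7 and 53.3 RPKM in the control. The lines were apart from each other and from the control, with line 2 lowest. It fell by 1.03 ± 0.15 (SE, adjusted p = 0.00688, edgeR). SNHG4, SNHG7 and SNHG17 fell by 0.77 ± 0.18, 0.44 ± 0.09 and 0.40 ± 0.10 on the log2 scale. The remaining 7 hosts lay between -0.37 and 0.01, and the median of the 11 was -0.25. The proteins that assemble snoRNAs gave 1 fall in 19 (RUVBL1, -0.40 ± 0.10, adjusted p = 0.0432), with PIH1D1 at -0.29 ± 0.09 (adjusted p = 0.0930) and FBL at -0.29 ± 0.10 (adjusted p = 0.119) next, and a median of -0.16. The nonsense-mediated decay list gave 2 rises in 18 (SMG9, 0.59 ± 0.12, adjusted p = 0.0236, and RBM8A, 0.48 ± 0.11, adjusted p = 0.0350), with SMG8 at 0.28 ± 0.10 (adjusted p = 0.133) next, and a median of 0.06 (SE, edgeR). Of the snoRNA assembly list 5.26% passed and of the decay list 11.1%, both below the 14.2% of all genes tested. Whether the counts of a host gene include reads from its introns is not given, and snoRNAs themselves were not analysed here.

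**Figure D4:**
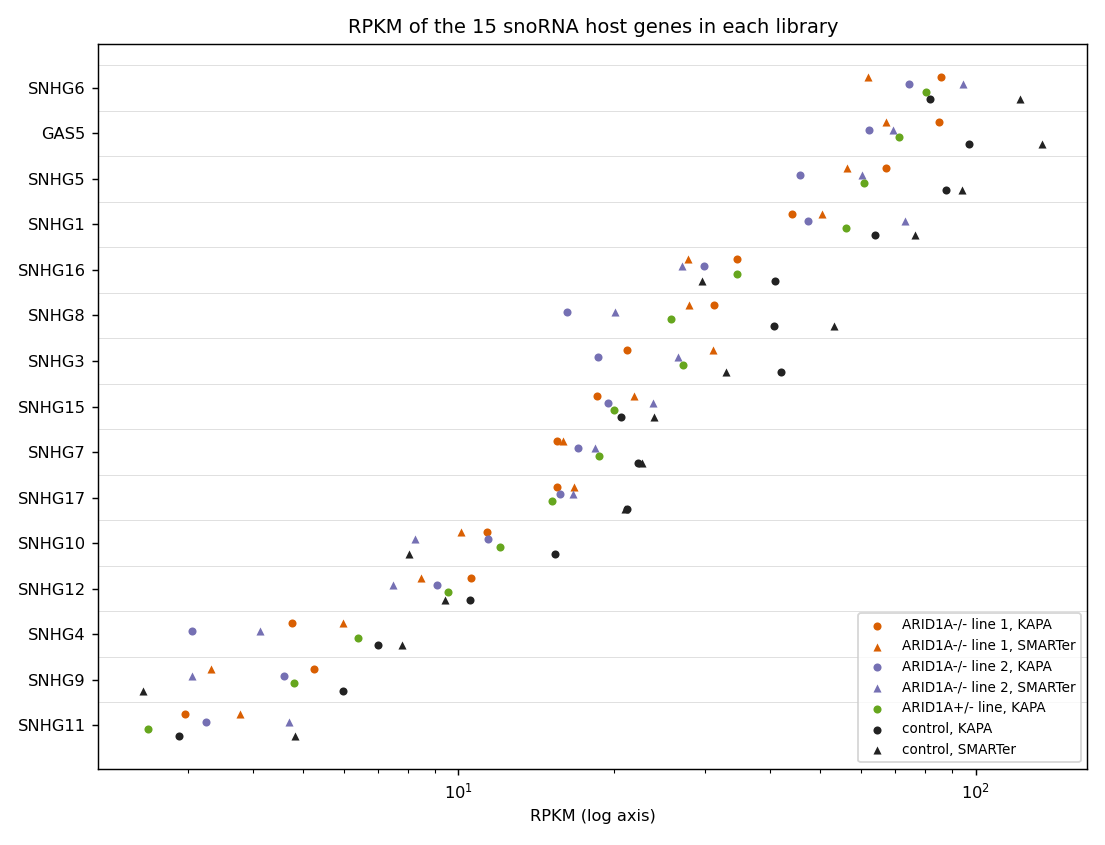
RPKM of the 15 snoRNA host genes on a log axis, by library, with circles for KAPA and triangles for SMARTer. In SNHG8, SNHG7, SNHG17, SNHG4, GAS5, SNHG5 and SNHG3 all 4 ARID1A-/- libraries lie below both controls. SNHG9 and SNHG10 part by kit in these RPKM values, but neither passed the test of the kit term.

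Without any test, 27 of the 85 members had RPKM in all 4 ARID1A-/- libraries below both control libraries, and 1 (EIF2AK3) above both. Over all genes tested these shares were 11.6% and 10.2%. Of the 27, 9 were among the 17 TOP members and 18 among the 68 others.

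The ARID1A+/- line has 1 library, so its difference from the KAPA control library has no replicate check. The median over the 17 TOP members was -0.13, with 13 below 0, against -0.08 over the other members and 0.01 over all genes. The coding TOP members were near the control, at a median of -0.02 with GNB2L1 the highest at 0.09 and NPM1 (-0.46) and EIF4B (-0.36) the lowest. The 4 TOP hosts were lower, at a median of -0.43 and between -0.57 (SNHG3) and -0.13 (SNHG1). The ribosomal protein symbols had a median of 0.00. EEF1A2 was the lowest member at -0.76, followed by SNHG8 at -0.60, and EIF4E3 was at 0.09.

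In 7 members the test of line 1 minus line 2 passed, 2 higher and 5 lower in line 1, where 12.8% of all genes passed (5.71% higher and 7.1% lower). Beside EIF2B1, EIF2AK1, EIF4E3 (-1.16 ± 0.18, adjusted p = 0.00966) and EIF2AK3 (-0.56 ± 0.12, adjusted p = 0.0297), these were SNHG8 (0.76 ± 0.18, adjusted p = 0.0394), EIF2D (0.59 ± 0.14, adjusted p = 0.0348) and EEF1E1 (-0.51 ± 0.13, adjusted p = 0.0456; SE, edgeR). EIF2D, which can load tRNA on the small ribosomal subunit, had 28.9 and 29.8 RPKM in line 1, against 18.2 and 22.1 RPKM in line 2. EEF1E1, a scaffold protein of the tRNA synthetase complex, had 30.8 and 25.4 RPKM in line 1, against 43.3 and 39.0 RPKM in line 2. Its reads can be shared with the readthrough entry EEF1E1-MUTED, which did not pass (-0.33 ± 0.12, adjusted p = 0.117). The count was 3 and 4 without the SMARTer and KAPA control libraries and 1 and 2 without the SMARTer and KAPA libraries of line 2, and EIF2B1 was called in all 6 fits that left out a library.

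The kits differed too. In each group of 2 libraries, SMARTer was replicate 1 and KAPA replicate 2. The kit and anything else that differed between these replicates cannot be told apart. All 17 TOP members were lower in KAPA than in SMARTer libraries, 7 of them past the threshold, with a median log2 difference of -0.41, against -0.01 over the other members and over all genes. Of the 85 members, 2 were higher and 17 lower in KAPA, where 13.3% of genes passed (5.3% higher and 7.99% lower). This split depended on the scaling: with library totals alone (no TMM factors), 10 members were higher and 3 lower, the median of all genes was 0.16, and the TOP median was -0.24 with 15 of 17 below 0. Relative to all genes the TOP median was -0.40 under both. With quantile normalization it was -0.18, with 15 of 17 below 0, and -0.20 relative to all genes. Ribosomal protein symbols gave 0 higher and 52 lower of 82, with a median of -0.51. The count of members called was 0 without either control library or either library of line 2 (16 to 24 at an unadjusted p under 0.05, edgeR), and 32 without the KAPA library of line 1.

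Within lines, the median kit difference of the TOP members was -0.19 in line 1, with 14 of 17 below 0, -0.60 in line 2, with 17 below 0, and -0.60 in the control, with 16 below 0. The other members had medians of -0.01, 0.01 and 0.01. Whether the kit difference varied by line was not tested, since each kit has 1 library per line. The median entry length was 2648 bases in the TOP members, 2958.5 in the other members, 1091 in the ribosomal protein genes and 3254 in all genes tested. The median of the mean RPKM was 153, 32.2, 456 and 7.01 in the same order, so the lists differ from all genes in abundance. Spearman's rho with the kit difference was 0.13 for length and 0.01 for mean RPKM across the 14711 genes, which are not independent.

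**Figure D5:**
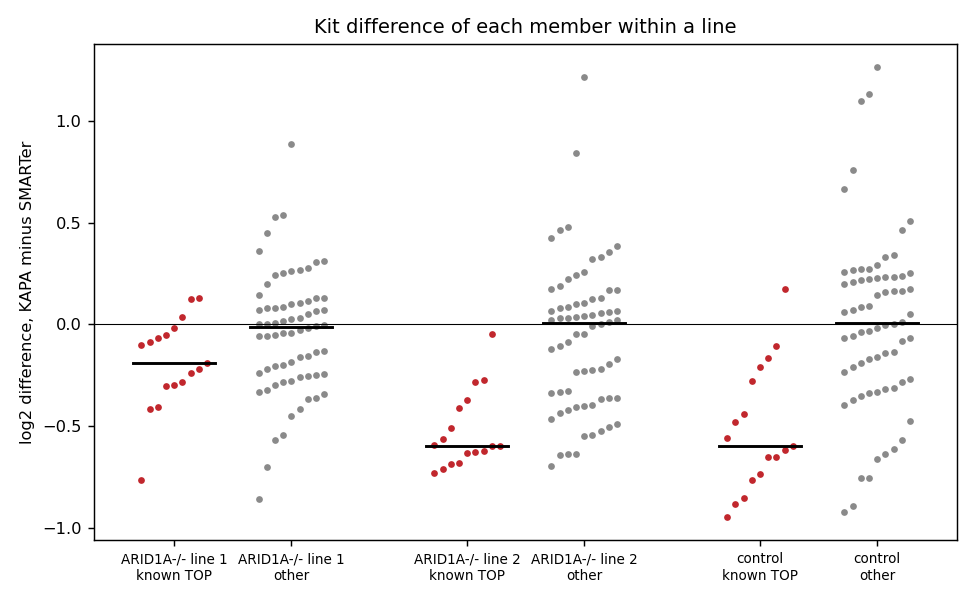
Log2 difference KAPA minus SMARTer of each member within a line, from counts scaled by library total and TMM factor, with known TOP members red, other members grey and a bar at the median. TOP members lie below 0 in line 2 and the control, and less so in line 1, while the other members centre on 0 in all 3.

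Outside the TOP list, EIF4EBP3, a binding protein that holds eIF4E inactive, had the largest kit difference. It had 5.31 against 2.48 RPKM in line 1, 4.46 against 1.78 RPKM in line 2, and 4.62 against 1.69 RPKM in the control, and 5.96 RPKM in the ARID1A+/- library. Each KAPA library was above every SMARTer library. KAPA minus SMARTer was 1.11 ± 0.23 (SE, adjusted p = 0.0302, edgeR). EIF5AL1, a copy of EIF5A with which it can share reads, was higher by 0.75 ± 0.17 (adjusted p = 0.0376). SNHG11, EIF1, EIF3L, EEF1A2 and EIF1B were lower by the kit term, at -0.71, -0.63, -0.60, -0.59 and -0.53. EIF1, which keeps the ribosome scanning for the start codon, had 265 and 305 RPKM in line 1, 269 and 404 RPKM in line 2, and 289 and 430.1 RPKM in the control, so KAPA was lower in all 3.

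Grouped by the letters at the start rather than by the list, the 19 members with the pyrimidine run had a median log2 fold change of -0.49 over both ARID1A-/- lines, with 9 lower and 0 higher, against -0.10 over the 50 members with a start sequence that lacks it, with 8 lower and 1 higher. The 10 of the 19 that are not on the TOP list (EIF2A, EIF2D, EIF2S3, EIF3D, EIF3K, EIF3M, EIF4A2, FBL, SNHG12 and SNHG4) were all below 0, with a median of -0.39 and 5 lower. Over all tested genes with a start sequence, the 769 with the run had a median of -0.09 and 22.5% passed, against 0.02 and 14.1% for the 9505 without it. Among the 769, the 702 that are neither members nor ribosomal protein genes had a median of -0.05, and 18.7% passed (94 lower and 37 higher). By kit, the 19 members with the run had a median of -0.33 and the 50 without it 0.10.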

How the data were processed

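Sequencing was single-end, per the labels' protocols. The submitters' processing notes name HISAT2 2.1.0 and the build hg19. The counting program, the annotation and any use of strand stand as not given in the sources used here, so EIF3C and EIF3CL, EIF5A and EIF5AL1, EEF1E1 and its readthrough, and genes with processed pseudogenes such as EEF1A1, NPM1 and TPT1 may share reads. Per the file headers, the authors deposited for each library whole-number counts, an entry length and RPKM values, and the RPKM equals count over length and library total to within 0.000501%.

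The counts of the 6 control and ARID1A-/- libraries were tested with edgeR 4.0.16 (quasi-likelihood, TMM, R 4.3.3), with terms for the 3 groups and the kit and 2 residual degrees of freedom. The fit kept the 14711 entries whose mean RPKM reached 0.5, and p-values were adjusted by Benjamini-Hochberg over all of them. Standard errors come from the fold change and its F statistic. The test was run on simulated data first.

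Replicate 1 of a group is its SMARTer library and replicate 2 its KAPA library. The kit is the block that pairs libraries across groups, from the labels, and same-kit deviations correlated at 0.51, 0.63 and 0.45 between the group pairs. Alternatives were DESeq2 1.42.0, limma 3.58.1 on log2(RPKM + 1) and log2(RPKM + 0.1), no TMM, quantile normalization, no filter, no kit term and leaving out each library.

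The members and all lists were chosen with earlier results of these data known, and the TOP list is textbook knowledge, not a measurement. The rule for naming took all TOP members, the other members past the threshold over both lines or between lines (at most 12 each by size), and the 5 largest rises and falls by kit. EIF6, SNHG7, SNHG17 and EIF2S3 and those named as not passing were added after their values were seen. Sequences are from RefSeq on GRCh38.p14, a different build from that of the counts, and serve only for the letters at the start.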

Additional observations from a re-analysis of the deposited data

Results flagged for a closer look

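In 7 of 85 members the level differed between the ARID1A-/- lines by edgeR's test of line 1 minus line 2 (adjusted p under 0.05), where 12.8% of all genes tested did, so the members' share is below that of all genes. The log2 difference was -1.16 for EIF4E3, -0.99 for EIF2B1, -0.71 for EIF2AK1, -0.56 for EIF2AK3, -0.51 for EEF1E1, 0.59 for EIF2D and 0.76 for SNHG8. For EIF4E3, EIF2AK3 and SNHG8 the fitted change from the control had the same sign in both lines, and for the other 4 the signs were opposite. EIF2B1 kept the call in all 6 fits that left out a library, EIF4E3 in 5, EIF2AK1 in 4, EIF2D in 2, EIF2AK3 and SNHG8 in 1 each and EEF1E1 in 0. Each line is a single line, so a difference that comes with the line and one that comes with its ARID1A mutations cannot be told apart.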

How the results depend on the processing

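The kit term is the replicate block: without it, that is with no replicate block, 2 members were called over both lines, against 25 with it, 1 in line 1 against 11, 3 in line 2 against 20, and 1 between lines against 7, and the TOP median of line 2 was -0.54. DESeq2 called 24 members in line 1 and 32 in line 2. Limma on log2(RPKM + 1) called 9 over both lines, 5 in line 1, 10 in line 2, 4 between lines and 5 by kit, all 5 higher in KAPA. Limma on log2(RPKM + 0.1) called 6, 2, 6, 2 and 0 in the same order, with 25 of the 85 at an unadjusted p under 0.05 by kit. Quantile normalization called 12 over both lines, 10 in line 2 and 2 by kit. The line 2 TOP median was -0.48 and -0.49 by limma with the larger and the smaller pseudocount, -0.49 without TMM, -0.36 with quantile normalization (16 of 17 below 0) and -0.51 without the filter.

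Leaving out 1 library in turn gave 3 to 39 members called over both lines, 1 to 34 in line 1, 3 to 40 in line 2, 1 to 9 between lines and 0 to 32 by kit. The lone library of a group was then taken to vary like the others. The TOP median ranged from -0.66 to -0.42 over both lines, -0.71 to -0.31 in line 1, -0.67 to -0.45 in line 2, -0.16 to 0.19 between lines and -0.59 to -0.32 by kit. Adding EIF3L, EIF2S3 and EIF4A2 to the TOP list gave -0.52 over both lines. Of the named members, none turned its direction under an alternative while called. With 2 libraries per line of different kits and 2 residual degrees of freedom, calls near the threshold depend on 1 library.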
